A study of Mus musculus with 4 samples.

Results

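The miRNAs of 7 hairpins known from blood cells were followed in cultured mouse synovial fibroblasts, which line the joint. The hairpins were mir-142, mir-223, mir-150, mir-342, mir-144, mir-451 and mir-486. Their mature arms were found by name, after the species prefix and the arm mark had been removed. The rule took 9 of the 590 miRNA names listed in at least 1 library, 3 each of leukocyte and myeloid, lymphoid and erythroid type. These class names give the blood cells that the miRNAs are known from, and the cells that made the reads were not tested. Of the 9, 5 passed the filter on low counts and were tested, named in the files as mmu-miR-142-3p, mmu-miR-142-5p, mmu-miR-223, mmu-miR-342-3p and mmu-miR-486. The other 4, miR-342-5p, miR-150, miR-144 and miR-451, did not pass it.

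The 4 libraries came from TghuTNF mice, which carry a human TNF transgene and develop arthritis, and from their wild-type (WT) littermates, with 2 biological replicates of each. All mice were 8 weeks old, were a cross of CBA/J and C57BL/6/J, and differed by genotype only per the labels. Cells were released from hind joints with enzymes and kept in culture for 4 passages, and per the labels such cultures were below 1% Mac1-positive, Mac1 being a surface protein of macrophages and granulocytes. Small RNA reads do not measure the transgene, so the genotype could not be checked in these files.

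The members differ in the blood cells they mark. Both arms of mir-142 are abundant in nearly all white blood cells, and miR-223 is a miRNA of neutrophils and monocytes that restrains granulocyte production. miR-150 is high in mature lymphocytes, where it represses Myb, and mir-342 lies in an intron of Evl and is expressed in lymphoid cells among others. miR-144 and miR-451 are processed from 1 erythroid transcript driven by GATA1, and miR-451 is cut by Ago2 instead of Dicer. miR-486 is made in red cell precursors from an intron of Ank1, and also in muscle.

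Mature sequences were found for 7 of the 9 names in the RefSeq table (GRCm38.p6). The 5 shown are those on which the results turn, both arms of mir-142 and of mir-342 and miR-223, written 5′ to 3′ with the seed (bases 2 to 8) in capitals.
miR-142-3p: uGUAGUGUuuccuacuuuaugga
miR-142-5p: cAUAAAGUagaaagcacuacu
miR-223: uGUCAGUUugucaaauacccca
miR-342-3p: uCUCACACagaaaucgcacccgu
miR-342-5p: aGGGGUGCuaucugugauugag

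Each of these seeds differed from the others, and 0 other mature sequences among the 1679 in the table had the seed of any of the 7. The nearest other mature sequence lay 6 to 8 mismatches away for all but miR-142-5p, which is beyond the 2 mismatches that the counting allowed. miR-142-5p lay 2 mismatches from miR-142b, which is annotated on the opposite strand of the same locus and is not among the names in the files used here. On the forward strand of GRCm38, miR-142-5p lies at chr11:87756867-87756887 and miR-142-3p at chr11:87756903-87756925, in an intron of Mir142hg. miR-223 lies at chrX:96242884-96242905 in an exon of F630028O10Rik, and the arms of mir-342 lie at chr12:108658638-108658659 (5p) and chr12:108658680-108658702 (3p) in an intron of Evl. Mir144 and Mir451a are neighbours on chromosome 11, at 78073005 to 78073070 and 78073170 to 78073241, with no other annotated gene across them. The hairpin of miR-486 spans bases 23142555 to 23142682 of chromosome 8, within an Ank1 intron, and that of miR-150 bases 45121757 to 45121821 of chromosome 7, outside other annotated genes.

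Total matches were 27362819 and 22959408 in the TghuTNF libraries and 16680860 and 26542371 in the WT libraries. Levels are given as CPM, matches per 1000000 matches after TMM scaling, and a count of 0 allows up to 3 matches, or 0.110 to 0.180 CPM, for counting error only. The cultures had the miRNAs of mesenchymal cells: 6 fibroblast markers, miR-21, miR-143 and miR-145 among them, summed to 283580 and 304758 CPM in TghuTNF and to 281580 and 294348 CPM in WT. miR-21 and miR-143 carry this sum, and of the 6, miR-214 fell (log2 fold change -0.93 ± 0.26, SE; edgeR adjusted p = 0.037) and 0 rose. That call ended with upper quartile scaling, at most 1 mismatch, a mean CPM of at least 10 or a crossed pairing of replicates (edgeR adjusted p 0.0503 to 0.0997). Without WT replicate 1 the log2 fold change of miR-214 was -0.53. The 9 blood cell miRNAs summed to 119 and 125 CPM in TghuTNF, against 103 and 78.4 CPM in WT. Since these are bulk samples, fewer cells of a type and less RNA per cell cannot be told apart.

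**Figure D1:**
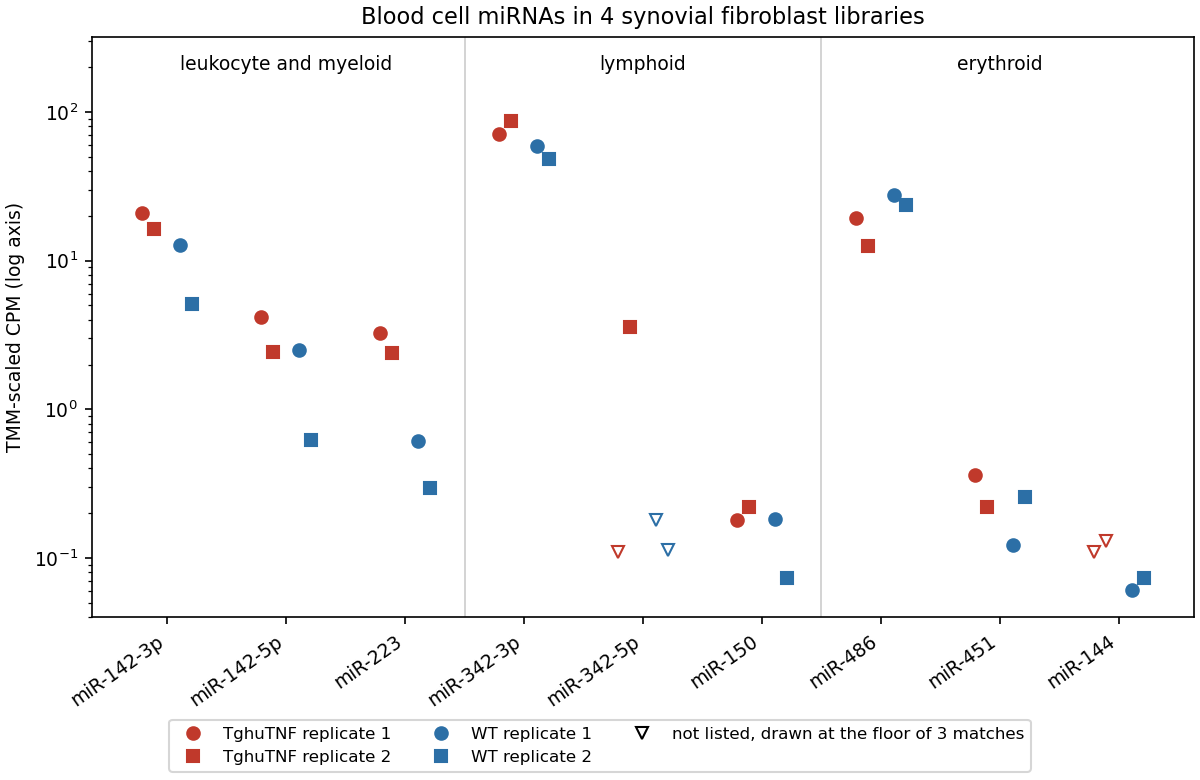
TMM-scaled CPM (log axis) of the 9 blood cell miRNAs, 1 point per library, with TghuTNF in red, left of WT in blue, and open triangles at the floor of 3 matches where a library does not list the name. miR-342-3p, miR-142-3p and miR-486 are the most abundant in every library, miR-150, miR-144 and miR-451 stay below 0.37 CPM, and miR-342-5p has a value in TghuTNF replicate 2 alone.

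miR-223 was the only member whose difference passed the test. It had 90 and 54 matches in the TghuTNF libraries, against 10 and 8 in the WT libraries. The level was 3.26 and 2.40 CPM in TghuTNF, against 0.609 and 0.294 CPM in WT. The genotypes did not overlap, and the lower TghuTNF library stood 3.94-fold above the higher WT library. The exact 95% Poisson intervals of the counts, per 1000000 unscaled matches, were 2.64 to 4.04 and 1.77 to 3.07 in TghuTNF, and 0.287 to 1.10 and 0.130 to 0.594 in WT. The log2 fold change was 2.72 ± 0.47 (SE), or 6.60-fold, with an edgeR adjusted p = 0.0026. Leaving out 1 library at a time gave log2 fold changes of 2.21 to 3.25, the lowest without WT replicate 2. These fits leave 1 library in a genotype, so only effect sizes are given. miR-223 remained a scarce miRNA here, ranking 322nd and 339th in the TghuTNF libraries and 415th and 442nd in the WT libraries.

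Both arms of mir-142, the general white blood cell miRNA, were higher in TghuTNF on average without passing the test, and they varied most between the WT cultures. miR-142-3p had 575 and 368 matches in TghuTNF, against 208 and 140 in WT. Its level was 20.8 and 16.3 CPM in TghuTNF, and 12.7 and 5.14 CPM in WT. The genotypes did not overlap, but the lower TghuTNF library stood 1.29-fold above the higher WT library, while the WT libraries differed 2.46-fold from each other. The log2 fold change was 1.08 ± 0.38 (SE; edgeR adjusted p = 0.092).

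miR-142-5p had 116 and 55 matches in TghuTNF, and 41 and 17 in WT. That was 4.20 and 2.44 CPM in TghuTNF, and 2.50 and 0.624 CPM in WT, so that TghuTNF replicate 2 and WT replicate 1 were nearly level and the genotypes overlapped. The log2 fold change was 1.18 ± 0.55 (SE; edgeR adjusted p = 0.18). Without WT replicate 1, the library with more of both arms, the log2 fold changes were 1.85 (miR-142-3p) and 2.41 (miR-142-5p). Without WT replicate 2 they were 0.55 and 0.41. Each of these fits leaves 1 WT library, so the result for mir-142 turns on which WT culture is taken as the baseline. Without TghuTNF replicate 1 the log2 fold changes were 0.82 (miR-142-3p) and 0.66 (miR-142-5p), and without TghuTNF replicate 2 they were 1.23 and 1.49. The p-values of fits with 1 library left in a genotype cannot be set beside those of the main fit, so only effect sizes are given for mir-142. With no filter on low counts, where edgeR called 6.61% of 590 miRNAs higher, both arms passed (edgeR adjusted p = 0.0035 for miR-142-3p and 0.028 for miR-142-5p). That fit gave miR-223 a smaller unadjusted edgeR p than the main fit at a larger SE. Its passes therefore cannot be set beside the main fit.

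The 3p arm of mir-142 outnumbered the 5p arm in all 4 libraries. There were 4.96 and 6.69 matches of the 3p arm for each match of the 5p arm in TghuTNF, and 5.07 and 8.24 in WT. The log2 ratio of 5p over 3p differed by 0.15 ± 0.33 (SE) between TghuTNF and WT, with a limma adjusted p = 0.90 over 106 hairpins with both arms past the filter. Of these hairpins 0% passed (6 had an unadjusted p under 0.05). The direction of this small difference turned with perfect matches (-0.31), without WT replicate 2 (-0.19) and without TghuTNF replicate 1 (-0.064).

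Replicates of one genotype differed by a median of 1.23-fold (TghuTNF) and 1.16-fold (WT) over all 442 tested miRNAs. In WT all 5 tested members were above that median: the ratio was 3.90-fold for miR-142-5p, 2.46-fold for miR-142-3p and 2.00-fold for miR-223, against 1.23-fold for miR-342-3p and 1.17-fold for miR-486. These ratios include an added count of 0.5 on the log scale. WT replicate 1 was the higher WT library for all 5. In TghuTNF the widest ratios were 1.71-fold for miR-142-5p and 1.54-fold for miR-486.

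Among the lymphoid members, miR-342-3p was the most abundant of all 9, and its arm partner appeared in a single library. miR-342-3p had 1965 matches in each TghuTNF library, against 973 and 1314 in the WT libraries. Its level was 71.2 and 87.2 CPM in TghuTNF, and 59.2 and 48.3 CPM in WT. Both TghuTNF libraries were above both WT libraries, by 1.20-fold at the nearest pair, and each genotype's replicates differed 1.23-fold. The log2 fold change was 0.56 ± 0.23 (SE), and the edgeR adjusted p of 0.14 did not pass. Without TghuTNF replicate 1 the log2 fold change was 0.63.

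miR-342-5p had 80 matches in TghuTNF replicate 2 and was not listed in TghuTNF replicate 1 or in either WT library. Of the 80 matches, 48 were perfect, 30 had 1 mismatch and 2 had 2 mismatches. Its level there was 3.55 CPM. Whether it had no reads in the other 3 libraries or is unlisted there for another reason cannot be told from the files. If unlisted means 0 matches, the floor was 0.110 CPM in TghuTNF replicate 1, and 0.180 and 0.113 CPM in the WT libraries. In the same library miR-342-3p had 24.6 matches for each match of the 5p arm. Of 35 names listed in exactly 1 library, miR-342-5p had the highest count, and the next highest had 3 matches. It did not pass the filter and has no test, since a value in 1 library of a genotype is not a difference between genotypes.

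miR-150, the mature lymphocyte miRNA, had 5 matches in each TghuTNF library, and 3 and 2 in WT. These are 0.181 and 0.222 CPM in TghuTNF, and 0.183 and 0.0735 CPM in WT. The counts are close to the limit that a count of 0 allows, and no difference was detectable at this depth. The abundant miR-342-3p was thus accompanied by very few reads of miR-150.

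Of the erythroid members only miR-486 was abundant. It had 530 and 281 matches in TghuTNF, against 455 and 643 in WT. Its level was 19.2 and 12.5 CPM in TghuTNF, against 27.7 and 23.6 CPM in WT, and the genotypes did not overlap. miR-486 was the only tested member that was lower in TghuTNF, with a log2 fold change of -0.69 ± 0.28 (SE), which did not pass (edgeR adjusted p = 0.13). Without TghuTNF replicate 1 it stood at -1.11, and without TghuTNF replicate 2 at -0.44.

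miR-451 and miR-144, the pair processed from 1 erythroid transcript, were almost unread. miR-451 had 10 and 5 matches in TghuTNF, and 2 and 7 in WT, with overlapping levels of 0.362 and 0.222 CPM in TghuTNF and 0.122 and 0.257 CPM in WT. miR-144 was not listed in the TghuTNF libraries and had 1 and 2 matches in WT. There were 53 and 56.2 matches of miR-486 for each match of the pair in TghuTNF, and 152 and 71.4 in WT. Of the muscle miRNAs, miR-1, miR-133a, miR-133b and miR-206 summed to 2054 and 1783 CPM in TghuTNF, against 2426 and 3008 CPM in WT. miR-1 and miR-206 carry this sum, while miR-133a averaged 1.06 CPM in TghuTNF and 2.12 CPM in WT, and miR-133b 1.06 CPM in TghuTNF and 2.11 CPM in WT. All 4 had negative log2 fold changes, 0 passed, and their part in the level of miR-486 was not tested.

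**Figure D2:**
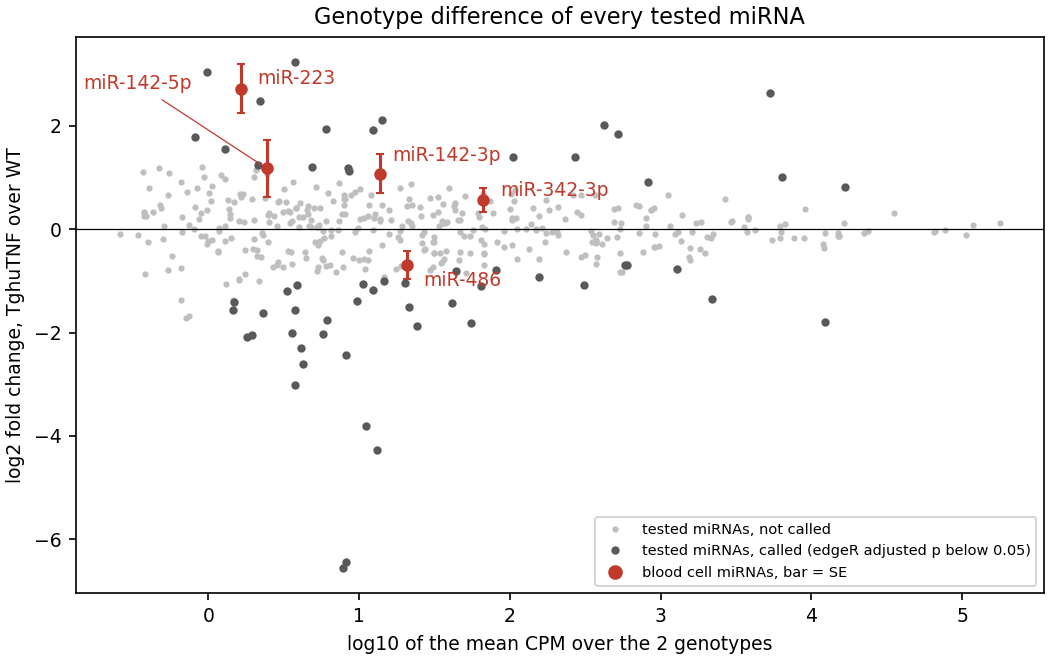
Log2 fold change of TghuTNF over WT against log10 of the mean CPM for the 442 tested miRNAs, with called miRNAs in dark grey and the 5 tested blood cell miRNAs in red (bars are SE). miR-223 at 2.72 lies among the called miRNAs, while the other 4 red points, between -0.69 and 1.18, were not called.

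Over all 442 tested miRNAs 4.75% were called higher and 8.6% lower by edgeR, and of the 5 tested members 1 was called higher and 0 lower. The genotypes did not overlap for 4 of the 5 members, as for 60.6% of all tested miRNAs. An unadjusted p under 0.05 was found for 4 of the 5, against 29% of all. The median log2 fold change was 1.08 over the 5 members, which is the value of miR-142-3p, and 0.0056 over all tested miRNAs. Both arms of mir-142 come from 1 hairpin, so the 5 members are not independent. These counts cover the members that passed the filter. Of the other 4 names, miR-150, miR-144 and miR-451 had at most 10 matches in a library, and miR-342-5p was listed in 1 library.

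By class, the summed leukocyte and myeloid members stood at 28.3 and 21.2 CPM in TghuTNF, against 15.8 and 6.06 CPM in WT. The lymphoid sum was 71.4 and 91.0 CPM in TghuTNF, against 59.4 and 48.3 CPM in WT. The erythroid sum was 19.6 and 12.7 CPM in TghuTNF, against 27.9 and 23.9 CPM in WT. Each sum is carried by 1 miRNA (miR-142-3p, miR-342-3p or miR-486) and so adds little to the values of that miRNA. The genotypes did not overlap in any of the 3 sums, as for 60.6% of all tested miRNAs taken singly.

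The order of the members differed little between genotypes. In TghuTNF, miR-342-3p averaged 79.2 ± 11.4 CPM (SD, n = 2), followed by miR-142-3p at 18.6 ± 3.17, miR-486 at 15.8 ± 4.75, miR-142-5p at 3.32 ± 1.24 and miR-223 at 2.83 ± 0.61. In WT, miR-342-3p averaged 53.7 ± 7.74 CPM (SD, n = 2), miR-486 25.7 ± 2.88, miR-142-3p 8.90 ± 5.32, miR-142-5p 1.56 ± 1.32 and miR-223 0.45 ± 0.22. The libraries of miR-142-3p and miR-486, and those of miR-142-5p and miR-223, overlapped in TghuTNF. In WT miR-142-3p and miR-486 were separate. miR-142-5p and miR-223 nearly met in WT, at 0.624 CPM (17 matches, replicate 2) and 0.609 CPM (10 matches, replicate 1). The sequences of these members other than miR-486, for which none was found, are 21 to 23 bases long.

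The reads counted for the members differed in how well they matched. Perfect matches were 66.0% to 70.5% of all matches in the 4 libraries. They made up 92.5% and 84.7% of the matches of miR-486 in TghuTNF, and 90.8% and 89.4% in WT. For miR-342-3p they were 79.1% and 73.5% in TghuTNF, and 79.3% and 80.1% in WT. For miR-223 they were 85.6% and 79.6% in TghuTNF, and 80% and 75% in WT.

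The reads of mir-142 mostly carried mismatches. Perfect matches were 47.3% and 45.4% of those of miR-142-3p in TghuTNF, and 42.8% and 45% in WT, with nearly all of the rest at 1 mismatch. For miR-142-5p they were 12.9% and 10.9% in TghuTNF, and 12.2% and 17.6% in WT, which leaves 15 and 6 perfect reads in TghuTNF and 5 and 3 in WT. TghuTNF replicate 2 had the most matches with 2 mismatches over all miRNAs, 11.7% against 8.21% to 8.73%, and among the members 7.33% of miR-342-3p there against 1.63% to 2.16% in the other libraries.

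**Figure D3:**
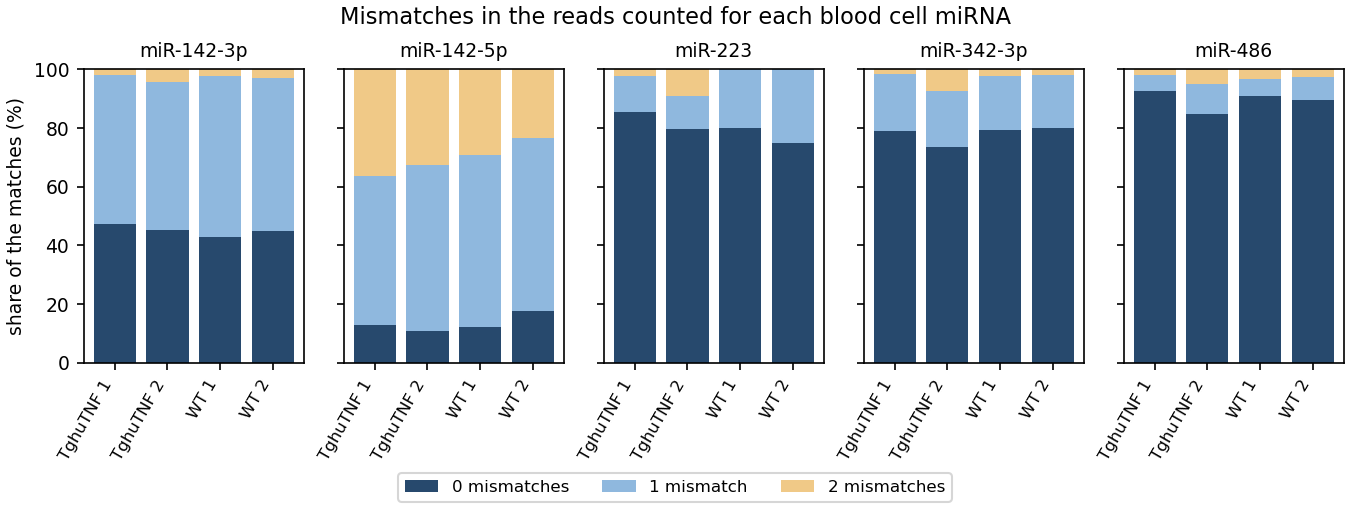
Share of the matches (%) with 0, 1 and 2 mismatches for the 5 tested blood cell miRNAs, 1 stacked bar per library. The arms of mir-142 have 10.9% to 47.3% perfect matches, and the other 3 miRNAs 73.5% to 92.5%.

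With perfect matches alone, the test over 380 miRNAs called 5% higher and 8.16% lower, and of the 4 members it could test 1 was called higher. miR-223 stood at 3.95 and 2.84 CPM of perfect matches in TghuTNF, against 0.694 and 0.321 CPM in WT (log2 fold change 2.82 ± 0.48, SE; edgeR adjusted p = 0.0044). miR-142-3p stood at 14.0 and 11.0 CPM in TghuTNF, against 7.73 and 3.37 CPM in WT (1.19 ± 0.40, SE; edgeR adjusted p = 0.090). miR-342-3p (0.51 ± 0.24, SE) and miR-486 (-0.70 ± 0.30, SE) did not pass, with edgeR adjusted p of 0.19 and 0.16. miR-142-5p had too few perfect reads to be tested.

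**Figure D4:**
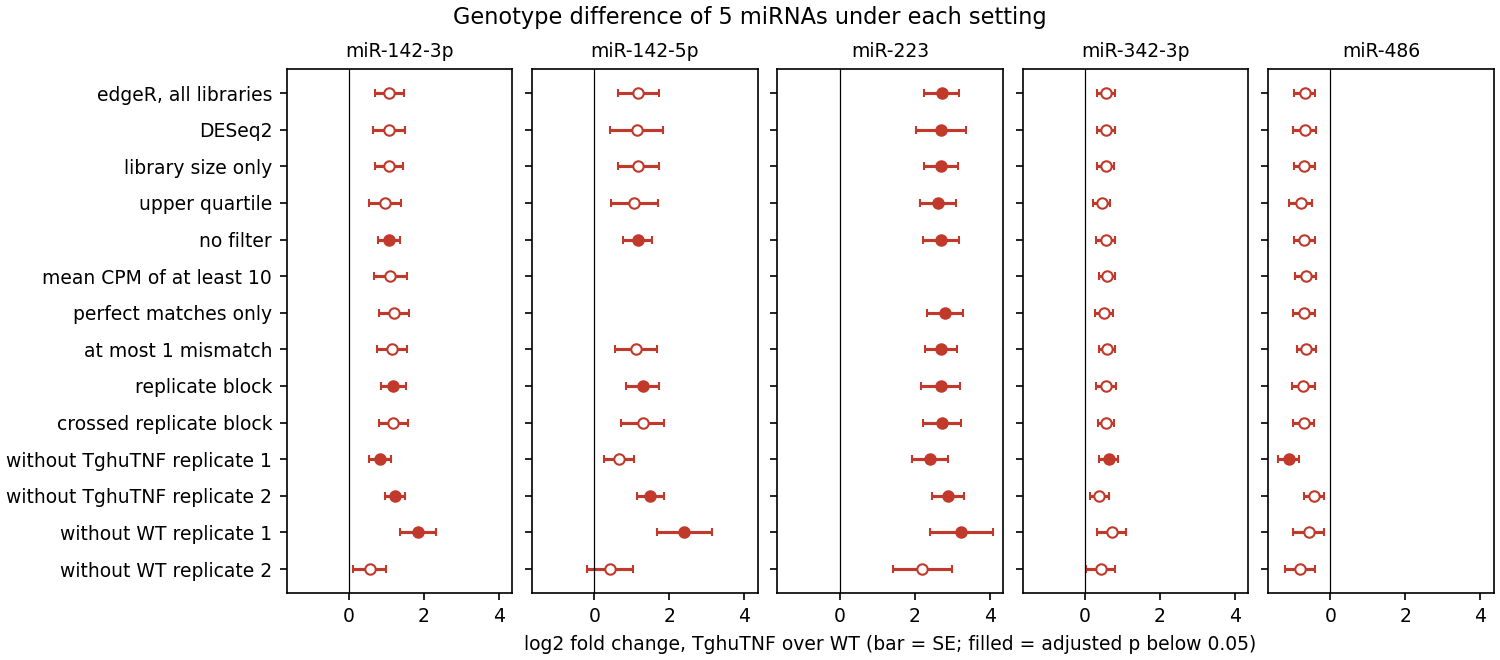
Log2 fold change of TghuTNF over WT with its SE for 5 blood cell miRNAs under the edgeR fit of all libraries and 13 alternatives, filled where the adjusted p is below 0.05. Filled points with 1 library left out, without a filter or with a replicate block cannot be set beside those of the main edgeR fit. Every point for miR-223 lies between 2.21 and 3.25, and miR-142-3p stands at 0.55 or 1.85 when 1 WT library is left out. A point is missing where a miRNA did not pass that setting's filter.

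Other miRNAs known from blood cells were measured beside the members. Of a list of 12, 10 were tested, 2 rose, 0 fell and 8 did not pass, with a median log2 fold change of 0.10. Over all 442 tested miRNAs, 4.75% were called higher and 8.6% lower. The 2 of the list that rose are induced by NF-kB in many cell types: miR-146a stood at 9207 ± 3755 CPM in TghuTNF and 1480 ± 42.7 CPM in WT, and miR-155 at 391 ± 80.6 CPM in TghuTNF and 148 ± 22.7 CPM in WT (SD, n = 2 each; edgeR adjusted p = 7.8e-05 and 0.0019). The lymphoid miRNAs miR-181a (0.16 ± 0.16, SE) and miR-181b (0.071 ± 0.16, SE) showed no change past the threshold. miR-511, which lies in the macrophage gene Mrc1, had 1 match over the 4 libraries together and was not tested. The endothelial markers miR-126-3p and miR-126-5p summed to 68.8 and 66.7 CPM in TghuTNF, against 127 and 108 CPM in WT, lower in both TghuTNF libraries. Of these, miR-126-3p was called lower (-0.79 ± 0.22, SE; edgeR adjusted p = 0.035). miR-126-5p did not pass (-0.77 ± 0.26, SE; edgeR adjusted p = 0.084). The 6 epithelial markers summed to 36.7 and 30.6 CPM in TghuTNF, against 67.7 and 70.9 CPM in WT. Of the 4 tested, miR-203 was called lower (-1.43 ± 0.24, SE; edgeR adjusted p = 0.0025), and 3 had positive log2 fold changes that did not pass. The neural markers miR-9 and miR-124 summed to 24.9 and 22.7 CPM in TghuTNF, against 23.9 and 33.5 CPM in WT, with 0 called. The part of other cells in the level of miR-223 was not tested.

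The tested miRNAs nearest in pattern to 3 members were found by the Euclidean distance between centred log2 CPM over the 4 libraries. Nearest to miR-142-3p were miR-184 (distance 0.37), miR-615-5p (0.55) and its own partner miR-142-5p (0.58), where the median of 441 miRNAs was 1.58. Nearest to miR-223 were miR-375 (0.68), miR-122 (1.08) and miR-215 (1.18), against a median of 2.80. Nearest to miR-342-3p were miR-1839-3p (0.13), miR-370 (0.14) and miR-183 (0.16), against a median of 0.80. With 4 libraries these distances carry no test.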

How the data were processed

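Small RNA libraries were made from gel fractions of 20 to 30 and 70 to 100 nucleotides per the labels. The authors matched reads of 37 bases to 707 mouse mature miRNAs with mimap version 3d, allowing 2 mismatches with a hash length of 9, and deposited raw counts per miRNA, in total and by number of mismatches (other values), per the file headers. How reads that match several miRNAs were handled, the trimming and the miRBase release: not given in the sources used here.

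A name that a library does not list was counted as 0. Counts were filtered with filterByExpr (442 of 590 kept), scaled with TMM and compared, TghuTNF against WT, with the two-sided quasi-likelihood test of edgeR 4.0.16 (R 4.3.3), adjusted by Benjamini-Hochberg over all tested miRNAs at 0.05. Errors of fold changes are SE. Arm ratios (pseudocount 0.5) were compared with limma 3.58.1. On simulated counts of this comparison (437 tested), 66.7% of 2-fold and 99.4% of 4-fold changes were recovered, with 3.09% false calls. The simulation gave all miRNAs 1 common dispersion and changed 200 of them, against 59 called in the data. Its shares therefore do not carry over to members with a wide replicate spread or few matches. Alternatives were DESeq2 1.42.0, other scaling, filters, mismatch limits, a replicate block and leaving out each library. The design text calls the 2 libraries of a genotype biological replicates. The members and lists were chosen with earlier results of these data known. All members were described, with the fixed lists and the 3 nearest patterns of 3 members. Without molecular identifiers, reads are not independent molecules, and the Poisson intervals and the floor of 3 counts describe counting error alone. Hairpin positions were taken from GENCODE M21 and RefSeq tables of GRCm38.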

Additional observations from a re-analysis of the deposited data

Results flagged for a closer look

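miR-342-5p in TghuTNF replicate 2 drew attention because it was seen outside the tested miRNAs and above the WT libraries: it had 80 matches there and was not listed in the other TghuTNF library or in either WT library. In a fit without a filter edgeR gave it a log2 fold change of 8.35 (adjusted p = 1.0e-11), which rests on that 1 library, depends on the prior count and counts the name as 0 where it is not listed. Whether it had no reads there cannot be told from the files.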

How the results depend on the processing

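All 5 tested members kept their direction in every alternative that could test them. The call of miR-223 held under the 8 settings with all libraries that could test it. These 8 include the fits without a filter and with a replicate block, whose passes are limited as described below. A mean CPM of at least 10 removes miR-223 and miR-142-5p, which leaves 0 members called and 20 miRNAs called in all, against 59. With no filter 93 miRNAs and 3 of the 5 members were called higher or lower, all 3 higher, and miR-142-3p (1.07) and miR-142-5p (1.15) passed. Replicate numbers do not pair cultures per the labels, and deviations of same-numbered libraries from their genotype means were weakly correlated over 442 miRNAs (r = -0.11). With a replicate block 87 miRNAs were called in all, 3 members were called higher, and miR-142-3p (1.19; edgeR adjusted p = 0.0033) and miR-142-5p (1.29; 0.024) passed. The fits without a filter and with a block gave miR-223 a smaller unadjusted edgeR p than the main fit, at a larger SE. Their passes therefore cannot be set beside those of the main fit. With the crossed pairing, chosen after seeing the data, 55 were called and 1 member.

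Leaving out 1 library each, log2 fold changes ranged from 0.55 to 1.85 for miR-142-3p, 0.41 to 2.41 for miR-142-5p, 2.21 to 3.25 for miR-223, 0.38 to 0.71 for miR-342-3p and -1.11 to -0.44 for miR-486. Members called higher then numbered 0 to 3, members called lower 0 to 1, and all calls 49 to 153, the 153 without TghuTNF replicate 1. The log2 arm ratio of mir-142 ranged from -0.19 to 0.49 and was -0.31 with perfect matches, which are 3 to 15 reads of the 5p arm. Upper quartile scaling moved the median of all miRNAs by -0.11. The cause of these changes was not tested. Depth limits miR-150, miR-144 and miR-451, with at most 10 matches per library.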
